A study of Schizosaccharomyces pombe with 9 samples.

Results

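The genes described here encode the proteins of the small (40S) subunit of the cytosolic ribosome of the fission yeast Schizosaccharomyces pombe. They were taken as every nuclear gene whose standard name is rps followed by a digit, which gave 55 genes of 6988 features in the count table, 28 on chromosome I, 20 on chromosome II and 7 on chromosome III. Genes named mrps, and the rps3 gene of the mitochondrial genome, encode mitochondrial ribosomal proteins and were left out. The 55 genes encode 31 proteins. Of these proteins 8 come from 1 gene each, 22 from 2 paralogous genes and 1, Rps4, from 3 genes.

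The 9 libraries hold poly(A)+ RNA of 3 strains, each in 3 biological replicates, all h- cells growing vegetatively at 30 °C in log phase, with YES as the rich medium. The groups were wild type (WT, strain Sp1), a strain labelled rsm1∆::natMX (ASY240), and a strain labelled nup211-1435* asp1-WT::kanMX (IAP105). Each mutant also carries a drug-resistance marker that WT lacks, and each group is 1 strain, so the mutation, its marker and other differences between strains cannot be told apart. Rsm1 and Nup211 belong to the basket on the nuclear face of the nuclear pore, and the question of the series was their influence on the 3′ ends of RNA and on termination of transcription.

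Ribosomes are made in large numbers in growing yeast, and ribosomal protein mRNAs are among the most abundant messages of the cell. The proteins are needed in equal numbers, since nearly all are present once in each ribosome, while the paralogous genes of a pair encode identical or nearly identical proteins. In fission yeast many ribosomal protein promoters lack a TATA box and carry instead the HomolD box, to which transcription factors bind, often with a HomolE box close upstream. Transcription of these genes is tied to growth through the TOR kinase pathway.

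Both promoter boxes were looked for in RefSeq's ASM294v3 assembly, from 250 nt before to 50 nt after each annotated gene start, on both strands. The HomolD letters searched were CAGTCACA (TGTGACTG on the other strand), and the HomolE core letters were AGGGTAGG (CCTACCCT on the other strand). Short stretches from the small-subunit genes are shown here because they carry these boxes and belong to the paralogs that part most (rps2201 and rps2202) and to genes that moved much or little (rps901 and rps3001). The stretches were chosen with the values known. Each runs 5′ to 3′ along the gene's own strand from position -95 to -31, counted so that -1 is the base before the annotated gene start, and capitals mark the searched letters of either strand.
rps2201: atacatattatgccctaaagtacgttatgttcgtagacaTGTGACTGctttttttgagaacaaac
rps2202: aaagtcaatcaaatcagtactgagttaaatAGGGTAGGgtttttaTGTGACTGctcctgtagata
rps901: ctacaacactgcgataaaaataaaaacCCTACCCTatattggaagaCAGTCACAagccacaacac
rps3001: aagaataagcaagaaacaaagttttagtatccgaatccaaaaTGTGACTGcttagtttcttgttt

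In ASM294v3 these stretches lie at chrI:1162689-1162753 (rps2201, reverse strand), chrI:1512421-1512485 (rps2202, reverse), chrI:476153-476217 (rps901, reverse) and chrI:4890225-4890289 (rps3001, forward). All of them precede the annotated transcripts of their genes. Annotated long noncoding RNAs overlap a part of those of rps2201 and rps2202, and the one at rps2202 (SPNCRNA.173) covers neither of its boxes.

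HomolD letters were found in 34 of the 55 small-subunit windows (61.8%) and in 54 of 86 windows of large-subunit and stalk genes (62.8%). In the windows of the other 4971 protein-coding genes they occurred in 0.986%, and over all 5112 windows in 2.68%. The HomolE core was found in 23 small-subunit windows (41.8%), in 33.7% of the large-subunit windows and in 0.805% of the others, or 1.8% of all. Positions are those of the first match in each window, and 1 window held more than 1 HomolD match. HomolD started 43 to 85 nt before the gene start, with a median of 52 nt. The HomolE core started 60 to 91 nt before it, with a median of 69 nt. Of the 55 windows 11 held both boxes, 46 at least 1 and 9 neither. A match of letters is a description and not a measured binding site.

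**Figure D1:**
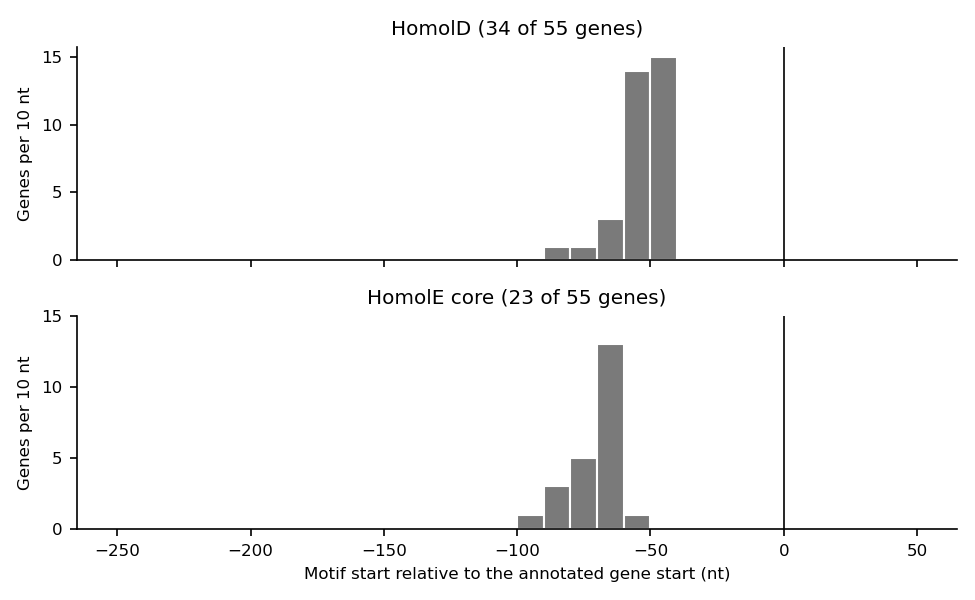
Position of promoter boxes in small-subunit ribosomal protein genes. The horizontal axis is the distance of the first base of the box from the annotated gene start in nt. Bars count genes per 10 nt, for HomolD (34 of 55 genes) above and the HomolE core (23 of 55 genes) below. Only the first match of each gene is drawn, and these fell between 43 and 91 nt before the start. The medians were 52 nt for HomolD and 69 nt for the HomolE core.

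The deposited values are raw read counts. Levels are given here as CPM, the counts of a gene relative to its library total, scaled with the trimmed mean of M values (TMM), which assumes that most features do not change. Libraries held 20.98 to 28.11 M counts, and 3 counts, the floor of detection, corresponded to 0.106 to 0.139 CPM. All 55 genes lay far above it in all 9 libraries. Together they took 8.91% to 9.24% of all counts in the WT libraries, 7.43% to 7.62% in the rsm1∆-labelled libraries and 7.51% to 7.74% in nup211-1435. The gene rsm1 itself was present in the libraries labelled as its deletion, at 31.2, 33.2 and 31.0 CPM against 37.1, 36.7 and 36.3 in WT, so the counts do not settle that label. The gene nup211 stood at 168, 189 and 183 CPM in WT and 276, 265 and 260 in nup211-1435. In the rsm1∆-labelled libraries it stood at 260, 258 and 230 CPM. These values do not tell which allele was read. In RNA from whole cultures, a lower level in every cell and fewer cells with the usual level cannot be told apart, and the total RNA of a cell was not measured.

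In WT, the small-subunit genes spanned a wide range of levels per length of annotated exon. The highest was rps2502, 1 of the genes for eS25, at 5714 ± 269 CPM per kb (SD, n = 3). The lowest was rps2202, for uS8 in the body of the subunit, at 878 ± 34.0 CPM per kb. Its neighbours at the low end were rps1401, for uS11 on the platform (951 ± 15), and rps001, for uS2 (1356 ± 81.1). The means of rps2202 and rps1401 were farther apart than either SD, whereas that of rps001 and the next, rps1001 (1412 ± 30.3), differed by less than the SD of rps001. Summed over the paralogs of a protein, the level ran from 2294 ± 385 CPM per kb for Rps29 to 7959 ± 394 for Rps25.

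In the rsm1∆-labelled libraries, nearly all small-subunit genes fell against WT. Calls were made at an adjusted p under 0.05 in edgeR's quasi-likelihood test with Benjamini-Hochberg adjustment over 6227 features tested, which included all 55. Of the 55, 54 fell and 0 rose. Over all features tested 34.1% were called lower and 36.7% higher. In 52 of the 55 every mutant library lay below every WT library, as was the case for 35.5% of all features, and the other 3 genes were rps29, rps3001 and rps3002. The median log2 fold change was -0.42, a change of -25.2%, beside a median of 0.01 over all features and -0.43 over the 86 large-subunit and stalk genes. The middle of the distribution was narrow, with quartiles at -0.47 and -0.36. Falls of 20% to 35% were measured for 43 of the 55 genes.

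The nup211-1435 libraries gave a similar picture. Of the 55 genes 53 fell and 0 rose, beside 32.0% of all features called lower and 32.9% called higher. The groups did not overlap for 50 of the 55, with every mutant library below every WT library, beside 33.5% of all features. The exceptions were rps27, rps2801, rps2802, rps29 and rps3001. The median log2 fold change was -0.38, a change of -23.2%, beside 0.01 over all features and -0.36 over the large-subunit and stalk genes, with quartiles at -0.44 and -0.31. Both comparisons use the same 3 WT libraries, so their likeness is not a repeat of the result. In the authors' deposited tables, 54 and 49 of the 55 genes were lower at an adjusted p under 0.05 and 0 were higher, with medians of -0.43 and -0.38.

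**Figure D2:**
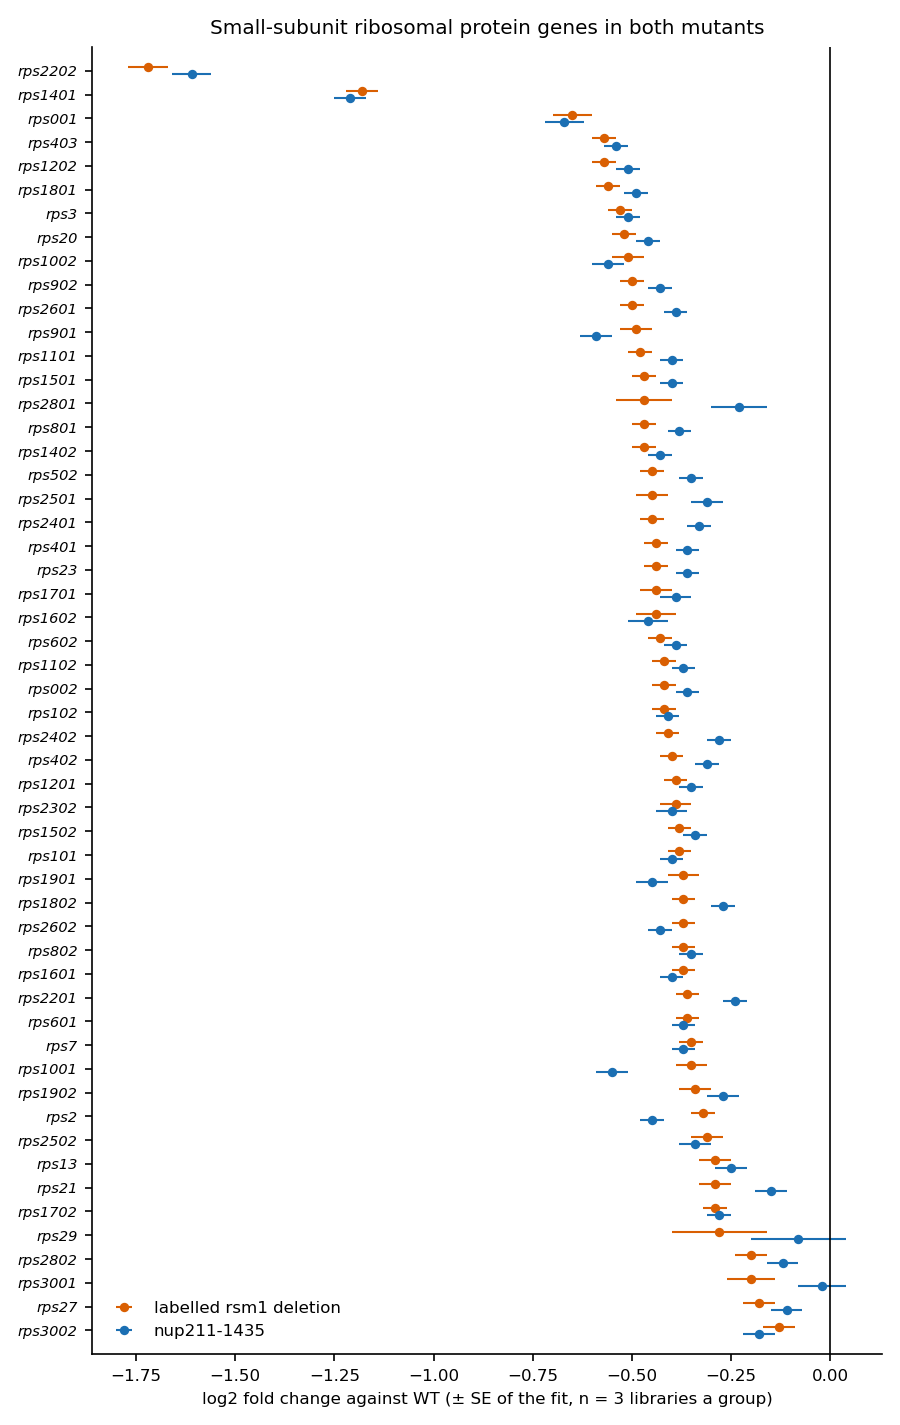
Change of 54 of the 55 small-subunit ribosomal protein genes against WT. The horizontal axis is the log2 fold change with its standard error (n = 3 libraries a group) in the rsm1∆-labelled libraries (orange) and in nup211-1435 (blue), with genes ordered by the former; rps2202 and rps1401 stand apart at the top, and rps29 and rps3001 lie near 0 in nup211-1435.

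The largest fall in both mutants was that of rps2202 (SPAC5D6.01), 1 of the 2 genes for uS8, a protein that binds the central domain of 18S rRNA. It stood at 596, 553 and 569 CPM in the WT libraries, at 174, 171 and 179 in the rsm1∆-labelled libraries, and at 204, 187 and 173 in nup211-1435. All 6 mutant libraries lay far below the lowest WT library. The log2 fold changes were -1.72 (SE 0.05, edgeR adjusted p = 2.73e-11) and -1.61 (SE 0.05, adjusted p = 4.26e-11). Its paralog rps2201 (SPAC22A12.04c), another gene for this protein, had 1330, 1341 and 1269 CPM in WT, 1039, 1006 and 1018 in the rsm1∆-labelled libraries, and 1129, 1124 and 1081 in nup211-1435. Its falls were -0.36 and -0.24 (SE 0.03 each), smaller than the median of the 55 genes.

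The next in size was rps1401 (SPAC3H5.05c), for uS11 on the platform near the exit of the mRNA channel. It stood at 561, 544 and 555 CPM in WT, 245, 239 and 249 in the rsm1∆-labelled libraries, and 251, 242 and 226 in nup211-1435. The mutant values lay at less than 50% of WT in every library, and the log2 fold changes were -1.18 (SE 0.04, edgeR adjusted p = 2.25e-12) and -1.21 (SE 0.04, adjusted p = 1.13e-12). Its paralog rps1402 (SPBC18H10.13) had 2250, 2159 and 2186 CPM in WT, 1600, 1550 and 1612, and 1648, 1647 and 1586 in the mutants. It fell by 0.47 and by 0.43 on the log2 scale (SE 0.03 each), close to the median.

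The annotation places both of these genes close to others. In ASM294v3 the gene pol1, for the catalytic subunit of DNA polymerase alpha, ends 2 nt upstream of rps1401 on the same strand, and aar2 on the opposite strand covers all 582 nt of rps1401. The levels of pol1 were 148 ± 4.02 CPM in WT and 132 ± 3.94 and 135 ± 3.04 in the mutants (SD, n = 3; log2 fold changes -0.16 and -0.13), and those of aar2 were 64.1 ± 2.28, 64.0 ± 0.297 and 57.2 ± 1.64 CPM. Upstream of rps2202, the noncoding RNA SPNCRNA.173 lies 66 nt away on the opposite strand, at 0.652 ± 0.232 CPM in WT, 1.0 ± 0.121 in the rsm1∆-labelled libraries and 0.78 ± 0.403 in nup211-1435 (SD, n = 3), with no call in either mutant. The gene rbm10 ends 292 nt away on the same strand, at 60.7 ± 0.645 CPM in WT, 67.0 ± 1.96 in the rsm1∆-labelled libraries and 64.1 ± 1.9 in nup211-1435. The gene mug165 shares 15 nt with rps2202 on the opposite strand and stood at 17.5 ± 0.205, 13.6 ± 1.93 and 11.4 ± 0.621 CPM. No source used here gives the strand setting of the authors' counting. In WT the mean of rps1401 was 554 ± 8.72 CPM (SD, n = 3), far above that of aar2, which covers it. How far reads of overlapping genes were kept apart in the counting was not tested. The part of neighbouring transcription in either fall was not tested.

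**Figure D3:**
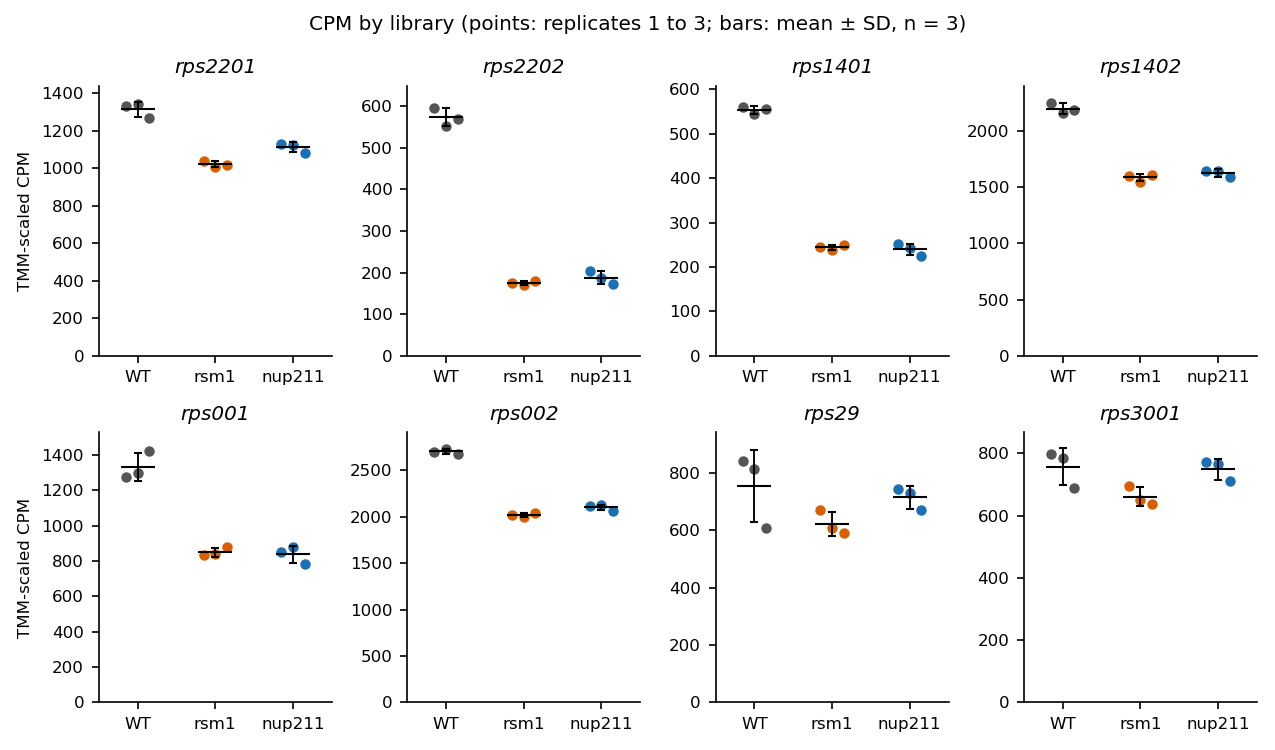
Levels of 8 small-subunit genes in each library. The vertical axis is TMM-scaled CPM, points are replicates 1 to 3, and bars are the mean ± SD (n = 3) in WT, the rsm1∆-labelled libraries (rsm1) and nup211-1435 (nup211); rps2202 and rps1401 fell farther than their paralogs, while the groups overlap for rps29 and rps3001.

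After these, the falls formed a continuous series. The gene rps001 (SPBC685.06), for uS2, which joins the subunit late in its assembly, had 1274, 1300 and 1423 CPM in WT, 833, 838 and 879, and 853, 878 and 783 in the mutants. It fell by 0.65 and by 0.67 (log2, SE 0.05 each). Its paralog rps002 fell by 0.42 and by 0.36 (SE 0.03 each).

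Of the genes for proteins of the head, 5 that fell beyond the lower quartile of the 55 genes in both mutants are described first. The gene rps1202, for eS12 in the beak, fell by 0.57 and by 0.51. The gene rps1801, for uS13, which faces the large subunit, fell by 0.56 and by 0.49, and rps20, the only gene for uS10, by 0.52 and by 0.46. The gene rps1002, for eS10, fell by 0.51 and by 0.56 (SE 0.03 to 0.04 for all 4). The gene rps3, which alone encodes uS3 at the entry of the mRNA channel, had 4165, 4158 and 4145 CPM in WT, 2835, 2827 and 2947, and 2922, 2941 and 2872 in the mutants. Its log2 fold changes were -0.53 and -0.51 (SE 0.03 each), far beyond the spread of its libraries. Other genes for head proteins lay on the other side of the median, among them rps29 (uS14) with -0.28 and -0.08, rps1702 (eS17) with -0.29 and -0.28, and rps2802 (eS28) with -0.20 and -0.12 (neither value of rps29 passed the test).

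In the body and at the mRNA channel, rps403, the third gene for eS4, fell by 0.57 and by 0.54 (SE 0.03 each). The gene rps901, for uS4, which bears on the fidelity of decoding, fell by 0.49 and by 0.59 (SE 0.04 each). The gene rps2 is the only gene for uS5, which the arginine methyltransferase Rmt3 modifies in fission yeast. It had 3532, 3556 and 3603 CPM in WT, 2830, 2814 and 2891 in the rsm1∆-labelled libraries, and 2584, 2699 and 2544 in nup211-1435, with log2 fold changes of -0.32 and -0.45 (SE 0.03 each). The genes for eS6, which is phosphorylated downstream of TOR, fell by 0.36 and by 0.37 for rps601 and by 0.43 and by 0.39 for rps602 (SE 0.03 each).

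The genes of several other families had log2 fold changes of -0.50 to -0.27. Those for eS24 fell by 0.45 and by 0.33 (rps2401) and by 0.41 and by 0.28 (rps2402). Those for eS19 fell by 0.37 and by 0.45 (rps1901) and by 0.34 and by 0.27 (rps1902). For eS25, the log2 fold changes were -0.45 and -0.31 (rps2501) and -0.31 and -0.34 (rps2502), and for eS26 rps2601 had -0.50 and -0.39 (SE 0.03 to 0.04 for all of these). The paralogs of genes named above, rps1201, rps1802, rps402 and rps902, had -0.39, -0.37, -0.40 and -0.50 in the rsm1∆-labelled libraries and -0.35, -0.27, -0.31 and -0.43 in nup211-1435.

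Several of the genes with the smallest changes were short. The smallest fall in the rsm1∆-labelled libraries was that of rps3002, with 320 nt of exon (-0.13, SE 0.04, edgeR adjusted p = 0.0117). In nup211-1435 it fell by 0.18 (SE 0.04, adjusted p = 0.00126). The gene rps29 (SPBC1685.09), the only gene for uS14, a small zinc-binding protein of the head, was not called in either comparison. It had 842, 812 and 609 CPM in WT, 670, 608 and 591 in the rsm1∆-labelled libraries, and 743, 730 and 670 in nup211-1435. WT replicate 3 lay below most mutant libraries, and the log2 fold changes were -0.28 (SE 0.12, edgeR adjusted p = 0.0836) and -0.08 (SE 0.12, adjusted p = 0.601). Without WT replicate 3 they were -0.41 (adjusted p = 4.75e-05) and -0.21 (adjusted p = 0.00593). Over all 17 alternatives the adjusted p ranged from 4.75e-05 to 0.37 and from 0.00593 to 0.971. In the DESeq2 alternative run here, rps29 was called lower in the rsm1∆-labelled libraries (-0.29, adjusted p = 0.0374). In the authors' deposited DESeq2 values it was not (-0.28, adjusted p = 0.0934).

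The gene rps3001 (SPAC19B12.04), for eS30 near the decoding site, was not called in nup211-1435. It had 798, 784 and 690 CPM in WT, 695, 649 and 637 in the rsm1∆-labelled libraries, and 771, 765 and 710 in nup211-1435. The nup211-1435 values lay within the WT range, and the log2 fold change was -0.02 (SE 0.06, edgeR adjusted p = 0.809). In the rsm1∆-labelled libraries it fell by 0.20 (SE 0.06, adjusted p = 0.0083). Scaled by total counts that value was -0.06 and the call was lost (adjusted p = 0.398; 4.47e-05 to 0.398 over the alternatives).

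The genes for eS28, at the mRNA exit, and eS21 were also near the threshold in nup211-1435. The values were -0.23 (SE 0.07, edgeR adjusted p = 0.0197) for rps2801, -0.12 (SE 0.04, adjusted p = 0.0275) for rps2802 and -0.15 (SE 0.04, adjusted p = 0.00308) for rps21. With total-count scaling the edgeR calls of these 3 genes were lost, at -0.10 for rps2801, 0.01 for rps2802 and -0.02 for rps21. In the authors' deposited DESeq2 values none of these 3 was called (adjusted p = 0.0564, 0.0985 and 0.242). The same held for rps27 (DESeq2 adjusted p = 0.223), which edgeR called at -0.11 (SE 0.04, adjusted p = 0.0179). The calls of rps2801 and rps2802 were also lost without WT replicate 1 (-0.18 and -0.09), without WT replicate 2 (-0.20 and -0.11) and without nup211-1435 replicate 3 (-0.19 and -0.08). In the rsm1∆-labelled libraries, rps2802 fell by 0.20 (SE 0.04), a call that total-count scaling also ended (-0.06, adjusted p = 0.212; 2.27e-05 to 0.212 over the alternatives).

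Over the 8 genes with less than 430 nt of exon, a limit set after the values were seen, the median log2 fold change was -0.28 and -0.17, beside -0.43 and -0.40 over the other 47. Spearman's rho of log2 fold change with exon length across the 55 genes was -0.29 and -0.47, and without rps2202 and rps1401 -0.30 and -0.49 (n = 53). Across 4995 protein-coding genes tested it had the opposite sign, 0.37 and 0.34. These are correlations across genes of the same libraries and carry no p. WT replicate 3 was the lowest WT library for 8 of the 8 short genes, at 73.6% to 92.7% of the mean of the other WT libraries, and for 34 of the 47 longer ones, at a median of 97.3%. In nup211-1435, replicate 3 was likewise the lowest library of its group for each of the 8 short genes, and for most of the longer ones. For rps29 the nup211-1435 libraries had 743, 730 and 670 CPM. The part of WT replicate 3 or of nup211-1435 replicate 3 in the smaller falls of short genes was not tested beyond leaving each out.

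**Figure D4:**
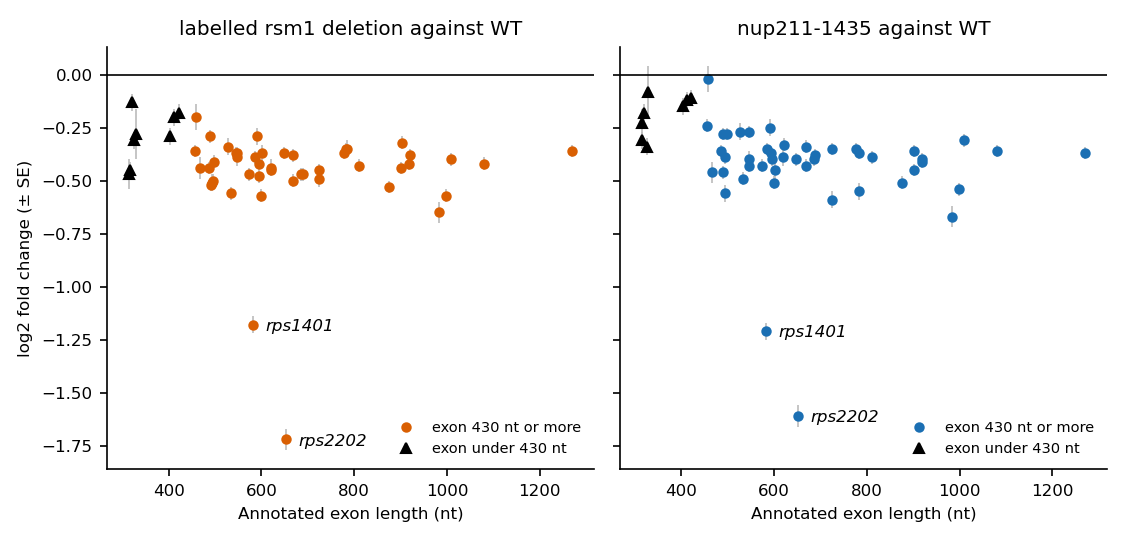
Change of 54 of the 55 small-subunit genes against their length. The horizontal axis is annotated exon length in nt and the vertical axis the log2 fold change against WT with its standard error (n = 3 libraries a group), for the rsm1∆-labelled libraries on the left and nup211-1435 on the right; the 8 genes under 430 nt (triangles) have medians of -0.28 and -0.17, and rps2202 and rps1401 lie far below the rest.

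Other features divided the 55 genes little. The 34 genes with HomolD letters had medians of -0.41 and -0.37, and the 21 without had -0.44 and -0.40. With the HomolE core the medians were -0.44 and -0.40 (n = 23), and without it -0.38 and -0.36 (n = 32). The stretch printed for rps2202 holds both boxes and that of rps2201 holds HomolD. The 31 genes with an intron had medians of -0.39 and -0.35, and the 24 without had -0.42 and -0.39. Genes with at least 50% of their exon under a feature of the opposite strand had medians of -0.42 and -0.37 (n = 21), and the rest -0.42 and -0.38 (n = 34).

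The paralog comparison asked whether genes for the same protein moved alike. The 3-gene Rps4 family and the 22 pairs gave 25 pairs of paralogs. For each, the log2 ratio of the paralogs was taken within every library, which removes the scaling between libraries. Most pairs moved nearly in parallel, with a median absolute difference of log2 fold changes of 0.10 in the rsm1∆-labelled libraries and 0.06 in nup211-1435. Only 2 of the 25 pairs differed by at least 0.5, the same pairs in both mutants. Among all 71 pairs of cytosolic ribosomal protein paralogs, which include these 25, 3 (4.23%) and 7 (9.86%) differed that much. Of the 46 pairs of large-subunit and stalk genes alone, 1 and 5 did. Among the 25 small-subunit pairs the third largest differences were 0.27 and 0.30.

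The ratios were tight within groups, so small shifts were also seen. The WT and mutant ranges of the ratio did not overlap for 21 of the 25 pairs in the rsm1∆-labelled libraries and for 16 in nup211-1435. Over all 71 ribosomal protein pairs, which include these 25, the shares were 77.5% and 73.2%. Of the 46 pairs of large-subunit and stalk genes alone, the ranges were apart for 34 and 36. Ratios with ranges apart were thus common in both subunits. An exact two-sided permutation test on the ratios of 3 against 3 libraries cannot go below p = 0.1, the value it gave for each of these pairs. The paralog with the lower WT level per length fell more in 13 and 11 of the 25 pairs, which shows no common direction.

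The pair rps2201/rps2202 parted most. The log2 ratio of rps2201 to rps2202 counts was 1.16, 1.28 and 1.16 in WT, 2.58, 2.56 and 2.51 in the rsm1∆-labelled libraries, and 2.47, 2.59 and 2.64 in nup211-1435. It was higher in all 6 mutant libraries, by 1.35 (SE 0.045, exact permutation p = 0.1, n = 3 a group) and by 1.37 (SE 0.066, exact permutation p = 0.1). Per length of exon, rps2202 supplied 23.4% of the uS8 mRNA in WT and 10.7% and 10.6% in the mutants. The summed level of both genes fell by 33.3% and 27.5%.

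For rps1401/rps1402 the log2 ratio was -2.0, -1.99 and -1.98 in WT, -2.71, -2.70 and -2.70 in the rsm1∆-labelled libraries, and -2.71, -2.76 and -2.81 in nup211-1435. The shifts were -0.71 (SE 0.009, exact permutation p = 0.1, n = 3 a group) and -0.77 (SE 0.029, exact permutation p = 0.1). The share of uS11 mRNA per length that came from rps1401 went from 19.9% to 13.2% and 12.7%. The sum of both genes changed by -33.4% and -32.1%, the largest changes of any small-subunit protein, with Rps22 (-33.3%) and Rps10 (-32.0%) next to it.

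**Figure D5:**
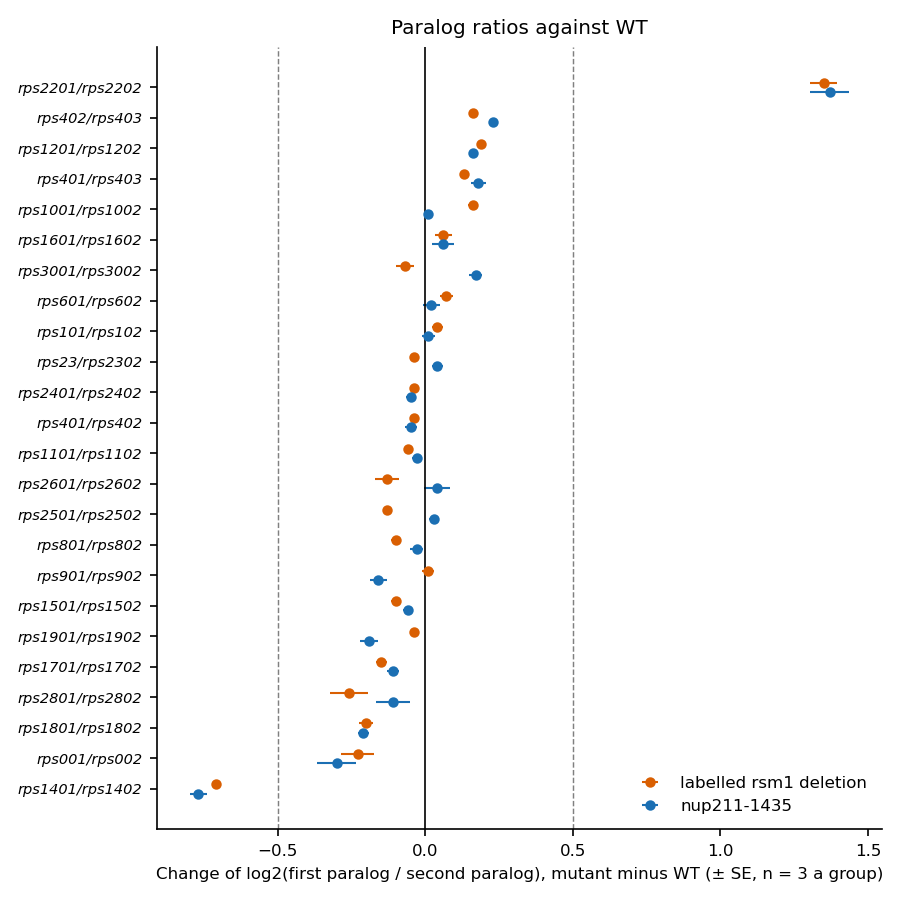
Shift of 24 of the 25 paralog ratios in the mutants. The horizontal axis is the change from WT of the log2 ratio of the first named to the second named paralog, with its standard error (n = 3 libraries a group), for the rsm1∆-labelled libraries (orange) and nup211-1435 (blue), and dashed lines mark 0.5 in either direction; only rps2201/rps2202 and rps1401/rps1402 lie beyond them.

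Smaller shifts differed between pairs in sign and between the mutants in size. The ratio rps001/rps002 shifted by -0.23 and -0.30, rps2801/rps2802 by -0.26 and -0.11, rps1801/rps1802 by -0.20 and -0.21, and rps402/rps403 by 0.16 and 0.23. The ratio rps1001/rps1002 shifted by 0.16 in the rsm1∆-labelled libraries and by 0.01 in nup211-1435, and rps901/rps902 by 0.01 and -0.16. For rps1901/rps1902 the values were -0.04 and -0.19, and for rps1201/rps1202 they were 0.19 and 0.16. For rps601/rps602 the shifts were 0.07 and 0.02, and some other pairs shifted less.

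Paralogs share coding sequence, which bears on how reads are divided. The coding sequences of rps1401 and rps1402 were 93.6% identical, and those of rps2201 and rps2202 92.4%. A run of over 100 nt is shared by the former pair, while the longest run shared by the latter is 52 nt, a small part of the 456 and 652 nt of exon of these genes.

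Summed over paralogs, the mRNA for every 1 of the 31 proteins was lower in both mutants, on the scale of TMM-scaled CPM per kb. The changes ran from -10.4% for Rps30 to -33.4% for Rps14 in the rsm1∆-labelled libraries, and from -5.32% for Rps29 to -32.1% for Rps14 in nup211-1435. Rps10 had -26.4% and -32.0%, and Rps0 -29.1% and -27.5%. These are descriptions of sums with no test of their own. The change of Rps29 lies within the spread of its WT libraries (2294 ± 385 CPM per kb). Sums were not taken with other scalings. With total-count scaling rps29, the only gene for its protein, had a log2 fold change of 0.055 in nup211-1435 (SE 0.126). A lower level for every protein in nup211-1435 thus depends on the scaling.

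The 2 mutants were then compared with each other. Of the 55 genes 15 were higher and 3 lower in nup211-1435 than in the rsm1∆-labelled libraries (edgeR, adjusted p under 0.05), beside 24.5% higher and 25.7% lower over all features. The share of small-subunit genes called higher was thus near the background, while the share called lower was below it. The median difference was 0.05 (log2), with quartiles at -0.01 and 0.09. No paralog pair differed by 0.5. The lower genes were rps1001 (-0.20, SE 0.04, adjusted p = 0.000589), rps2 (-0.12, SE 0.03, adjusted p = 0.00221) and rps901 (-0.10, SE 0.04, adjusted p = 0.0415).

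The gene rps1001, for eS10, had 849, 837 and 919 CPM in the rsm1∆-labelled libraries and 771, 776 and 722 in nup211-1435, with no overlap between the groups. Of the genes called in the other direction, the largest differences were 0.24 for rps2801 (SE 0.07, edgeR adjusted p = 0.0245), 0.18 for rps3001 (SE 0.06, adjusted p = 0.0201) and 0.14 for rps2501 (SE 0.04, adjusted p = 0.0122). The 0.20 of rps29 did not pass the test (SE 0.12, adjusted p = 0.233). The genes rps2402, rps21, rps2401, rps2201 and rps2601 followed with 0.11 to 0.13. These calls are small, and the count of 18 fell to 10 (4 lower, 6 higher) without replicate 2 of the rsm1∆-labelled libraries and to 11 (4 lower, 7 higher) without nup211-1435 replicate 2. The calls of rps2801 and rps3001 were lost without any 1 of 4 libraries, replicates 2 and 3 of the former and replicates 1 and 2 of nup211-1435, with log2 differences of 0.19 to 0.24 and 0.16 to 0.17 and adjusted p-values of 0.0534 to 0.0958. Over all alternatives these ranged from 0.000235 to 0.0958 for rps2801 and from 0.000583 to 0.0756 for rps3001. Without replicate 2 of the rsm1∆-labelled libraries the calls of rps21, rps2501 and rps2601 were lost too (0.12, 0.12 and 0.10, adjusted p-values of 0.0526 to 0.0602), as was that of rps2501 without nup211-1435 replicate 2 (0.12, adjusted p = 0.0567).

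Proteins of the small subunit that do not bear an rps name behaved in different ways. The protein eS31 is made as a fusion with ubiquitin from ubi3 and ubi5, and the other ubiquitin fusion genes, ubi1 and ubi2, carry a large-subunit protein. Of the list of 5 ubiquitin genes 4 fell and 1 rose in both mutants, where 34.1% and 32.0% of all features were called lower and 36.7% and 32.9% higher. The gene ubi5 had 1211, 1218 and 1167 CPM in WT, 850, 794 and 850, and 924, 925 and 877 in the mutants, with log2 fold changes of -0.53 and -0.40 (SE 0.03 each). The gene ubi3 fell by 0.09 (SE 0.04, edgeR adjusted p = 0.0336) and by 0.11 (SE 0.04, adjusted p = 0.016). The polyubiquitin gene ubi4, which encodes no ribosomal protein, rose by 0.83 and 0.86 (SE 0.04 each).

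Among 9 partners and modifiers of the small subunit, 2 fell and 7 rose in the rsm1∆-labelled libraries, and 3 fell and 6 rose in nup211-1435. Of all features 34.1% and 32.0% were called lower and 36.7% and 32.9% higher. The gene cpc2, for the subunit's scaffold protein RACK1, had 4186, 4258 and 4426 CPM in WT, 2784, 2823 and 2966, and 2967, 3022 and 2893 in the mutants. Its log2 fold changes of -0.59 and -0.54 (SE 0.03 each) lay beyond the quartile of the 55 genes. The methyltransferase gene rmt3 fell by 0.58 in the rsm1∆-labelled libraries and by 0.17 in nup211-1435, and was higher by 0.41 in the latter (SE 0.03 for all 3). The kinase gene tor2 was among those that rose, by 0.74 in nup211-1435 (SE 0.04).

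Assembly factors of the 40S subunit take part in processing and folding its rRNA. Of 53 names listed for such genes 50 matched a gene in the table, and all 50 were tested. In the rsm1∆-labelled libraries 16 rose and 16 fell, with a median of 0. In nup211-1435 23 rose and 12 fell, with a median of 0.12. Over all features 36.7% rose and 34.1% fell in the former and 32.9% and 32.0% in the latter, with medians of 0.01 in both, so the share of assembly genes that rose in the rsm1∆-labelled libraries was near that of all features. Between the mutants 24 were higher and 1 lower in nup211-1435, against 24.5% and 25.7% of all features. The largest fall was that of utp4, for a subunit of the small-subunit processome (-1.11 and -0.84, SE 0.05 each). The processome gene utp20 rose by 0.75 in nup211-1435 (SE 0.05), and utp25 fell by 0.62 in the rsm1∆-labelled libraries (SE 0.05). The list and these counts include dim1, which in fission yeast is a splicing factor and not the rRNA methyltransferase of that name in budding yeast.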

How the data were processed

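Poly(A)+ RNA of 9 libraries in 3 groups of 3, taken from the labels' titles, was analysed. The authors deposited raw read counts, whole numbers per feature. For each mutant the deposited files also give mean normalized signal, log2 fold changes against WT, a test score (Wald statistic) and p-values, per the file headers in the form of DESeq2 output. The submitters' processing notes name DESeq2, HTSeq 0.10.0, HISAT2 2.1.0, SAMtools and build ASM294v2. No source used here gives the annotation or the strand setting.

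The edgeR package (4.0.16, under R 4.3.3) was used, with filterByExpr at a minimum count of 10 and a total of 15, which left 6227 features. Libraries were scaled by TMM, and a robust quasi-likelihood model without covariates was fitted to all 9 libraries. Groups were compared with two-sided quasi-likelihood tests, adjusted by Benjamini-Hochberg over all features. The biological coefficient of variation was 3.95%. Without molecular identifiers, floors cover only the error of counting. Replicates differed by more than sampling noise (chi-square per degree of freedom 2.8 to 11.9). The code was tested on simulated data. Alternatives were DESeq2 1.42.0, other scalings, no filter, only the groups compared, a replicate block and leaving out each library.

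Names, exons, introns, overlaps and promoters came from RefSeq's ASM294v3 alone. Of the features 6836 matched by systematic ID, 12 by synonym and 140 not. The files hold no coordinates, so none of build ASM294v2 were mixed in. Members, gene lists, tests and limits were chosen with earlier results of these data known. The rule for genes named with values took, per comparison, the 10 called members of largest absolute log2 fold change, all members not called against WT, both genes of the 8 pairs that differed most, the members of highest and lowest WT level per length, and the rps2 and rps6 genes. From the other lists it took up to 4 examples. Results of 1 member and of its pair are not reported by name here and are not drawn. Beyond the rule, ubi3, the neighbours of rps2202 and rps1401, and the exceptions of counts were named after their values were seen.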

Additional observations from a re-analysis of the deposited data

How the results depend on the processing

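All 54 and 53 calls against WT were falls, and under every alternative run (other scalings, no filter, DESeq2, only the groups compared, a replicate block and leaving out each library) the calls numbered 50 to 55 and 48 to 54, with 0 rises. The medians depended on the scaling. Total-count scaling moved the median of all features to 0.16 and 0.14 and gave member medians of -0.277 and -0.247. Upper-quartile scaling moved the median of all features to -0.09 and -0.07 and gave -0.528 and -0.462. The distance between the members and all features thus stayed near 0.4. With total-count scaling rps2802 turned from -0.12 to 0.014 in nup211-1435 (adjusted p = 0.771; 0.0015 to 0.771 over the alternatives). Leaving out 1 library gave medians of -0.433 to -0.399 and -0.392 to -0.365, 53 to 55 and 50 to 54 calls, and 2 pairs that differed by 0.5 in each run. Between the mutants it gave medians of 0.038 to 0.065 and 10 to 22 calls, fewest without rsm1 deletion replicate 2, and 0 pairs. DESeq2 gave 55, 53 and 19 calls.

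Over all features tested, correlations of same-numbered deviations ran from -0.0801 to 0.0819, so replicate numbers showed little pairing of the libraries. Such correlations cannot decide on pairing in single genes. For rps29, replicate 3 was the lowest library of each group (609, 591 and 670 CPM). With a replicate block 55, 53 and 16 genes were called and the medians were -0.419, -0.382 and 0.048. The pair counts stayed at 2, 2 and 0. In that fit rps29 was called lower in the rsm1∆-labelled libraries (-0.267, adjusted p = 0.00869; 4.75e-05 to 0.37 over the alternatives). Depth was ample for all 55 genes.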
